A study of Canis lupus with 23 samples.

Results

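The genes described here are 9 targets or activators of cytotoxic drugs: the topoisomerases TOP1, TOP2A and TOP2B, thymidylate synthase (TYMS), the ribonucleotide reductase subunits RRM1 and RRM2, deoxycytidine kinase (DCK), thymidine kinase 1 (TK1) and amidophosphoribosyltransferase (PPAT). They were chosen by gene symbol among the 15115 genes with a symbol on the Affymetrix Canine Genome 2.0 array. All 9 were on the array, through 18 probesets (sets of short oligonucleotides that read 1 transcript). The samples were biopsies of spontaneous tumors from 23 client-owned pet dogs, each read on 1 array. There were 7 lymphomas, 5 melanomas, 4 sarcomas, of which 2 were titled STS and 2 sarcoma, and 3 transitional cell carcinomas of the bladder (TCC). Hepatocellular carcinoma (HCC), nasal tumor, hemangiosarcoma (HSA) and histiocytic sarcoma had 1 tumor each, so that their values have no replicate and no test. The labels name no treatment, genotype, age or sex for any tumor. By the study's eligibility rules, dogs had untreated disease, and earlier chemotherapy, radiation therapy or immunotherapy excluded a dog. The study enrolled golden retrievers for its lymphoma cohort, Scottish terriers for its TCC cohort and dogs of all breeds with oral melanoma, so breed and tumor type cannot be told apart in part of the tumors.

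Topoisomerases cut and reseal DNA to release the twist that builds up ahead of copying and transcription. TOP1 cuts 1 strand and is the target of irinotecan and topotecan, while the type II enzymes pass a duplex through a break in both strands and are targets of doxorubicin, mitoxantrone and etoposide. TOP2A rises in cells that copy their DNA and divide, whereas TOP2B is present in cycling and resting cells. The remaining genes feed the pool of DNA precursors: ribonucleotide reductase makes deoxynucleotides and is hit by hydroxyurea and gemcitabine, TYMS makes thymidylate and is hit by fluorouracil, DCK and TK1 phosphorylate salvaged deoxynucleosides, and DCK activates gemcitabine. PPAT catalyses the committed step of purine synthesis from small precursors and is inhibited by thiopurine metabolites such as those of thioguanine.

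Levels are given as log2(signal + 16), averaged over the probesets of a gene, and a difference of 1 on this scale is a doubling of signal + 16. The added 16 understates the fold change of dim genes. Levels of different genes were not compared, since probesets differ in brightness. Of the 9 genes, 8 passed the filter on low values (a level over 7.03, the median over all genes and arrays, on at least 3 of 23 arrays) and entered the tests with 9972 genes in all. TK1 did not pass: its only probeset lay below a signal of 16 in 4 of 23 tumors, and its test values come from the fit without the filter. A gene was called different in a type when limma gave an adjusted p under 0.05 and a log2 difference of at least 1 in size from the mean of the other 3 types with replicates. In bulk tumor RNA, more cells of a kind and more RNA per cell cannot be told apart.

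The arrays were scaled to a common trimmed mean by the authors, and the median signal ran from 82.1 to 132 over the 23 arrays. The log2 ratio of 3' over 5' signal in the control genes ran from 6.50 to 9.0, and the highest value was that of the HCC. The HCC also had the most probesets below a signal of 16, 27.2% against at most 23.9% in the other tumors. The part of these array traits in the low HCC values was not tested. Most marker lists sat with the labels: the melanocyte list averaged 9.91 to 10.69 in the melanomas and at most 6.20 elsewhere, the urothelial list 8.93 to 9.94 in the TCC and at most 5.64 elsewhere, and the liver list 13.45 in the HCC and at most 6.04 elsewhere. Fibroblast and matrix genes averaged 10.89 to 12.55 in the sarcomas and overlapped the melanomas, which reached 11.68. Endothelial genes averaged 9.80 in the HSA against at most 8.21 elsewhere. T cell genes averaged 7.60 to 11.58 in the lymphomas and B cell genes 6.24 to 10.12, and both ranges overlapped those of the other tumors, which reached 8.64 and 7.25. The histiocytic sarcoma had the highest macrophage level, 11.05, and also a skeletal muscle level of 11.18 against at most 7.54 elsewhere. The part of this muscle RNA in the values of that tumor was not tested.

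Lymphoma stood highest. Its mean level was the highest of the 4 types with replicates for all 9 genes, and the single highest tumor of the 23 was a lymphoma for 8 of them, PPAT being the exception. The sarcoma mean was the lowest of the 4 for 6 genes (TOP1, TOP2A, RRM2, DCK, TK1 and PPAT), the melanoma mean for TYMS and RRM1, and the TCC mean for TOP2B. These orders were counted for the 9 genes only, with no share over all genes beside them. Lymphoma was also the largest group, with 7 of the 23 tumors, which favours it for the single highest tumor. By the test, TOP1 and TOP2A were higher in lymphoma than in the other 3 types. That is 2 of 8 genes tested, where 6.95% of all genes tested were called higher and 12.1% lower. At an adjusted p alone, without the size limit, 5 of 8 were higher (TOP1, TOP2A, TOP2B, RRM1 and RRM2), against 17.1% of all genes.

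**Figure D1:**
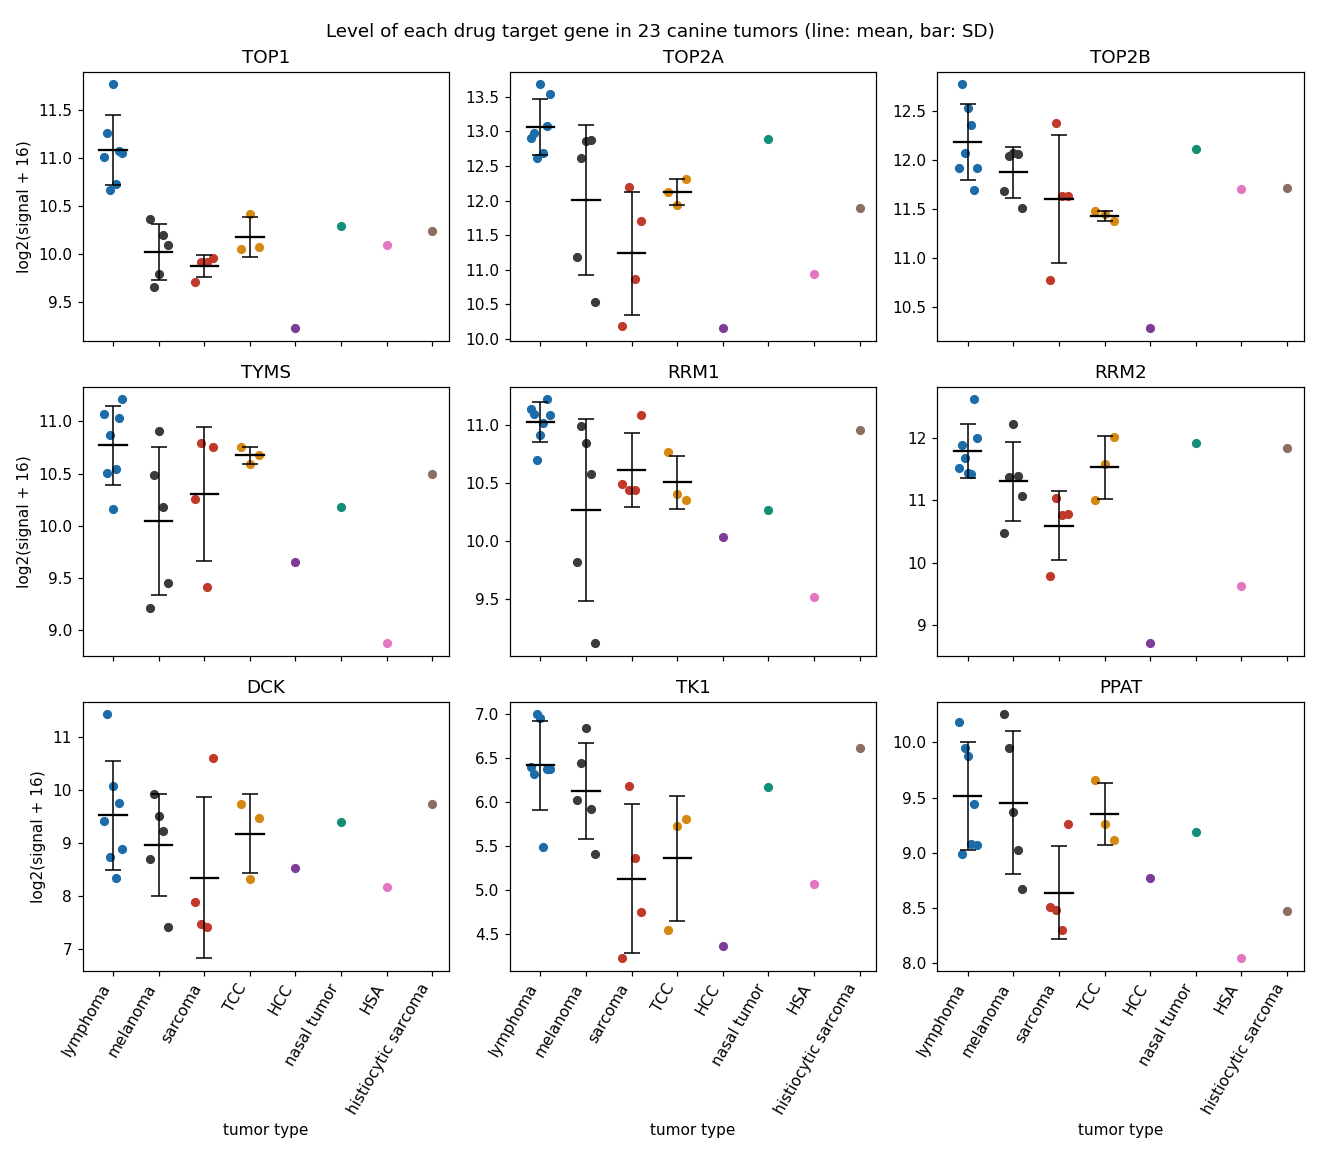
Level of the 9 genes, as log2(signal + 16), in each tumor by tumor type, with the mean and SD of the 4 types with replicates; each panel has its own scale. All 7 lymphomas lie above the other 16 tumors for TOP1, at 10.67 or more against at most 10.41, while for the other genes the lymphomas overlap other types. The share of all genes that separate in this way was not taken.

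TOP1 separated the lymphomas without overlap. Its level ran from 10.67 to 11.78 in the 7 lymphomas, with a median of 11.05 (mean 11.08 ± 0.37 SD, n = 7). It was 10.36, 9.66, 9.79, 10.20 and 10.09 in melanomas 0 to 4 (10.02 ± 0.29 SD, n = 5). The other types were as low: 9.71 and 9.92 in the STS, 9.91 and 9.96 in the sarcomas and 10.05, 10.41 and 10.07 in the TCC. Among the single tumors it was 10.30 in the nasal tumor, 10.24 in the histiocytic sarcoma, 10.09 in the HSA and 9.22 in the HCC, the lowest of the 23. The lowest lymphoma thus lay above the highest of all other tumors. The share of all genes with such a separation was not taken. Lymphoma exceeded the mean of the other 3 types by 1.06 ± 0.16 (SE), a fold of 2.09 (limma, adjusted p = 5.08e-05). All 3 TOP1 probesets gave a like difference, 1.05, 1.03 and 1.10, and 2 of them also separated all 7 lymphomas from the rest. Without lymphoma 3, whose level was the highest, the difference was 0.95 with an adjusted p of 0.000122, which falls below the size limit and ends the call.

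TOP2A varied more widely. The lymphomas ran from 12.61 to 13.69 with a median of 12.98 (13.07 ± 0.41 SD, n = 7). The melanomas lay apart from each other: melanomas 1, 2 and 3 were at 12.61, 12.86 and 12.88, in the range of the lymphomas, whereas melanomas 0 and 4 were at 11.18 and 10.53. Among the sarcomas, STS 1 had 12.20, sarcoma 1 had 11.70, sarcoma 0 had 10.86 and STS 0 had 10.19. The 3 TCC were close together at 12.13, 11.94 and 12.31. The nasal tumor, at 12.89, was the highest tumor outside lymphoma, and the HCC, at 10.15, the lowest of all. Lymphoma exceeded the other 3 types by 1.28 ± 0.32 (SE), a fold of 2.42 (limma, adjusted p = 0.00512). The lymphomas overlapped with 3 melanomas and the nasal tumor, and 5 of the 7 lay above every other tumor. Sarcoma minus the other 3 types was -1.16 ± 0.38 for TOP2A, which did not pass the test (adjusted p = 0.0671).

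TOP2B, the isoform present in cycling and resting cells, spread less. Its range over the lymphomas was 11.70 to 12.78 with a median of 12.07, over the melanomas 11.52 to 12.07 and over the TCC 11.38 to 11.48. STS 0 had 10.78, both tumors titled sarcoma had 11.64 and STS 1 had 12.38, the highest value outside lymphoma. The HCC was lowest at 10.29. Lymphoma was higher by 0.54 ± 0.19 (SE; adjusted p = 0.0354), under the size limit.

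Of the ribonucleotide reductase subunits, RRM2 was lower in sarcoma by the adjusted p and RRM1 did not pass, and the difference between the subunits was not tested. RRM2, the subunit whose level follows the cell cycle, was 9.78 and 11.04 in the STS and 10.77 and 10.78 in the sarcomas. The lymphomas ran from 11.43 to 12.63 (median 11.68), the melanomas from 10.47 to 12.22 and the TCC from 11.01 to 12.01. The sarcoma values lay below all lymphomas but overlapped melanomas and TCC. Sarcoma minus the other 3 types was -0.95 ± 0.28 (SE) for RRM2, a fold of 1.94, which passed the adjusted p (0.0443) but not the size limit. By the adjusted p, 3.04% of all genes were lower in sarcoma, and RRM2 was the only gene of the 8. Outside the 4 types it was 11.93 in the nasal tumor and 11.85 in the histiocytic sarcoma, but 9.63 in the HSA and 8.70 in the HCC, the 2 lowest of the 23. The HCC differed from the mean of the other 22 tumors by -2.64. Its array had the highest 3' over 5' ratio and the most probesets below a signal of 16, and their part was not tested.

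RRM1, the large catalytic subunit, was tight in lymphoma, at 10.70 to 11.23 with a median of 11.09 (11.03 ± 0.17 SD, n = 7). In sarcoma it was 10.49, 10.44, 10.45 and 11.09 and the difference from the other types was 0.01, with a 95% interval of -0.51 to 0.54. The melanomas were spread from 9.12 to 10.99, and melanoma 4, at 9.12, was the lowest of all tumors. Lymphoma was higher than the other 3 types by 0.56 ± 0.21 for RRM1 (adjusted p = 0.0471) and by 0.65 ± 0.24 for RRM2 (adjusted p = 0.0414), both SE and both under the size limit.

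TYMS, the source of thymidylate, did not separate the types. It ran from 10.16 to 11.21 in the lymphomas (median 10.87) and from 10.59 to 10.76 in the TCC. Melanomas 0 and 4, which were low for TOP2A, were also low for TYMS at 9.22 and 9.45, and the other 3 melanomas were at 10.18 to 10.91. Sarcoma 0 had 9.41 and the other 3 sarcomas 10.26 to 10.79. The lowest tumor was the HSA at 8.88. Lymphoma minus the mean of the other 3 types was 0.43, with a 95% interval of -0.07 to 0.93 (adjusted p = 0.176), so a difference of nearly 1 in this direction is within the interval.

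DCK, which phosphorylates deoxycytidine and activates gemcitabine, had the widest spread within types of the 9 genes. It was measured by 1 probeset and ran from 8.34 to 11.44 in the lymphomas (9.52 ± 1.04 SD, n = 7), with lymphoma 1 the highest of all tumors. Of the sarcomas, 3 were at 7.40, 7.47 and 7.89 and sarcoma 1 was at 10.60, so that the sarcomas held both the lowest tumor and the highest outside lymphoma. The melanomas ran from 7.42 to 9.93 and the TCC from 8.32 to 9.74. The SD within types, 1.10, was larger than the SD over all 23 tumors, 1.04. Lymphoma minus the other 3 types was 0.70 with a 95% interval of -0.29 to 1.69 (adjusted p = 0.268). Compared with sarcoma alone, the DCK difference of 1.18 did not pass the test (adjusted p = 0.176), but without sarcoma 1 it was 1.94 with an adjusted p of 0.022.

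TK1, the cytosolic kinase of thymidine, was dim throughout. Its level was 5.49 to 7.0 in the lymphomas (median 6.38) and 5.41 to 6.84 in the melanomas. In the sarcomas it was 4.22, 6.19, 5.36 and 4.75 and in the TCC 4.54, 5.74 and 5.81. The types overlapped. Without the filter on low values, lymphoma exceeded the other 3 types by 0.88 ± 0.32 (SE; limma, adjusted p = 0.0538) and sarcoma alone by 1.29 (adjusted p = 0.0417).

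PPAT, the entry enzyme of purine synthesis, was the gene whose highest tumor was not a lymphoma: melanoma 0 had 10.26 and lymphoma 0 followed at 10.18. The lymphomas ran from 8.99 to 10.18 (median 9.44), the melanomas from 8.68 to 10.26 and the TCC from 9.12 to 9.66. The sarcomas were lower at 8.51, 8.48, 8.30 and 9.26. The histiocytic sarcoma had 8.47 and the HSA, at 8.04, was the lowest of all. Sarcoma minus the other 3 types was -0.80 ± 0.28 (SE), which did not pass (adjusted p = 0.0891). Lymphoma minus the other 3 was 0.36 with a 95% interval of -0.13 to 0.86 (adjusted p = 0.247).

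**Figure D2:**
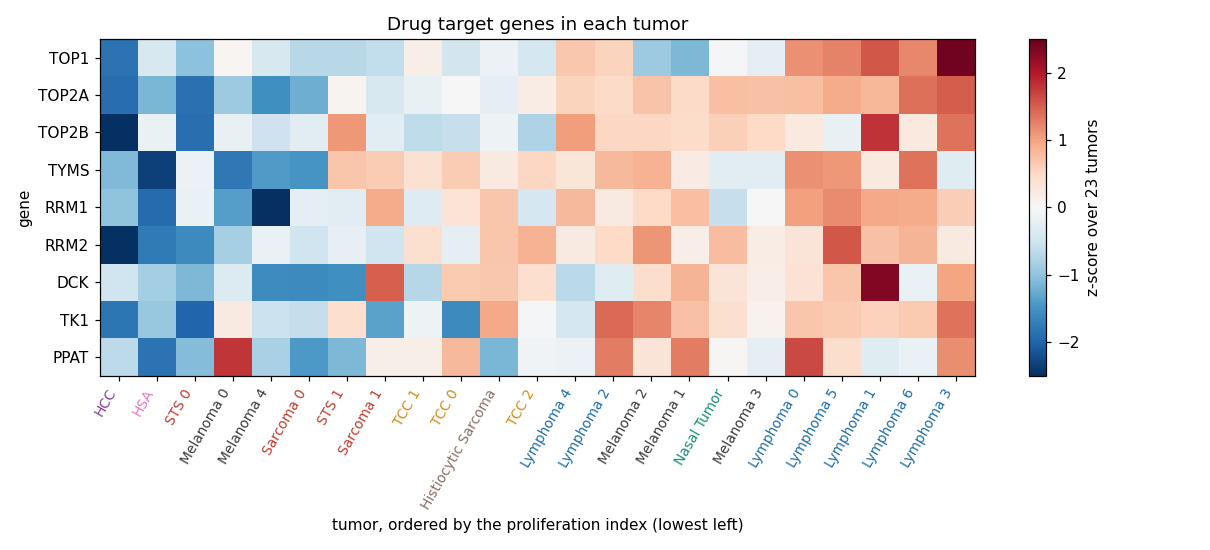
z-score of each gene over the 23 tumors, with tumors ordered from the lowest proliferation index at the left (HCC, -1.53) to the highest at the right (lymphoma 3, 1.40). TOP2A follows the order most closely, while PPAT and DCK have high values scattered along it.

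None of the 8 genes was called in melanoma or in TCC, nor in sarcoma. For melanoma, 4.32% of all genes were called in either direction, for TCC 11.2% and for sarcoma 6.05%. At an unadjusted p under 0.05, limma counted 0 of 8 genes in melanoma, 0 in TCC and 4 lower in sarcoma (TOP1, TOP2A, RRM2 and PPAT). No share of all genes was taken at that threshold, so these counts have no background and are not read as an excess. The count in sarcoma rested on single tumors: RRM2 and TOP2A were both called lower without STS 1, RRM2 alone without melanoma 0 or without TCC 0, and TOP2A alone without melanoma 4. With TOP1, TOP2A and RRM2 past it, the F test over the 4 types called 3 of 8 genes, against 35.6% of all genes. RRM2 did not pass it without STS 0 (adjusted p = 0.109), without lymphoma 6 (adjusted p = 0.0501), with the brightest probeset alone (adjusted p = 0.0569) or with the title number as a block (adjusted p = 0.121).

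The pairs of types show where the neighbours in the order differed. At an adjusted p under 0.05, TOP1 and RRM1 were higher in lymphoma than in melanoma (10.6% of all genes), TOP1, TOP2A, RRM2 and PPAT higher than in sarcoma (10.9%), and TOP1 alone higher than in TCC (10%). The TOP1 differences were 1.07, 1.21 and 0.91 in that order, with adjusted p of 0.00057, 0.000357 and 0.00658. TOP2A in lymphoma exceeded sarcoma by 1.83 ± 0.42 (SE), a fold of 3.56 (adjusted p = 0.00398). Against melanoma the difference was 1.06 (adjusted p = 0.0596), and against TCC it was 0.94, with a 95% interval of -0.02 to 1.91. RRM2 exceeded sarcoma by 1.20 ± 0.31 (adjusted p = 0.00906). PPAT against sarcoma (0.87, adjusted p = 0.048) and RRM1 against melanoma (0.76, adjusted p = 0.0429) lay near the threshold. No gene passed between melanoma and sarcoma, where 1.89% of all genes were called, between melanoma and TCC (9.97%), or between sarcoma and TCC (10%). In those 3 pairs the unadjusted p was under 0.05 for 2, 0 and 1 of 8 genes, with no share of all genes taken at that threshold.

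How the genes moved with proliferation was read against an index, since no probeset is named MKI67 in the platform annotation. MKI67 is the usual marker of cycling cells, and its level is not analysed here. The index is the mean z-score over the 23 tumors of 32 proliferation genes kept by the filter, such as MCM5 of the replication helicase and the mitotic kinases BUB1B and AURKB, and it holds none of the 9 drug target genes. The index genes were themselves higher in lymphoma: 15 of 32 were called higher and 0 lower, with a median log2 difference of 1.01 against 0.07 over all genes. BUB1B was higher there by 2.17, MCM5 by 1.97 and AURKB by 1.47 (adjusted p = 0.00102, 7.92e-05 and 0.000357). The lymphomas had an index of 0.33 to 1.40, the TCC of -0.24 to 0.11 and the sarcomas of -1.08 to -0.38. In the melanomas it was -0.97 and -0.95 in melanomas 0 and 4 and 0.42 to 0.67 in the other 3. The nasal tumor had 0.55, the histiocytic sarcoma -0.05, the HSA -1.20 and the HCC -1.53.

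Over the 23 tumors, 7 of the 8 genes tested rose with the index (limma regression, adjusted p under 0.05), where 7.54% of all genes had a positive relation and 2.69% a negative relation. TOP2A followed it most closely, with r = 0.96 (adjusted p = 1.2e-09) and a slope of 1.27 ± 0.09 (SE) per unit of the index. Then came RRM2 (r = 0.81, adjusted p = 0.000145), RRM1 (r = 0.72, adjusted p = 0.00479), TOP1 (r = 0.72, adjusted p = 0.00479) and TOP2B (r = 0.71, adjusted p = 0.00489). TYMS had r = 0.64 (adjusted p = 0.0171) and DCK r = 0.61 (adjusted p = 0.0213). PPAT had r = 0.50 and did not pass (adjusted p = 0.0927), but passed without melanoma 0, the tumor with its highest level and a low index (r = 0.68, adjusted p = 0.0136). TK1, without the filter, had r = 0.73 (adjusted p = 0.0079). The rank correlations were 0.97 for TOP2A, 0.77 for RRM2, 0.72 for TK1, 0.69 for RRM1, 0.66 for TOP1, 0.65 for TOP2B, 0.64 for DCK, 0.50 for TYMS and 0.44 for PPAT. The 9 permutation tests of r gave p from 1e-05, the smallest that 100000 permutations can give, for TOP2A to 0.0162 for PPAT, and those of the rank correlation 1e-05 to 0.0389, all two-sided and unadjusted. Without the HCC and the HSA, the tumors with the index farthest from its median, r was 0.95 for TOP2A, 0.72 for RRM2, 0.67 for TOP1 and 0.39 to 0.66 for the others.

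**Figure D3:**
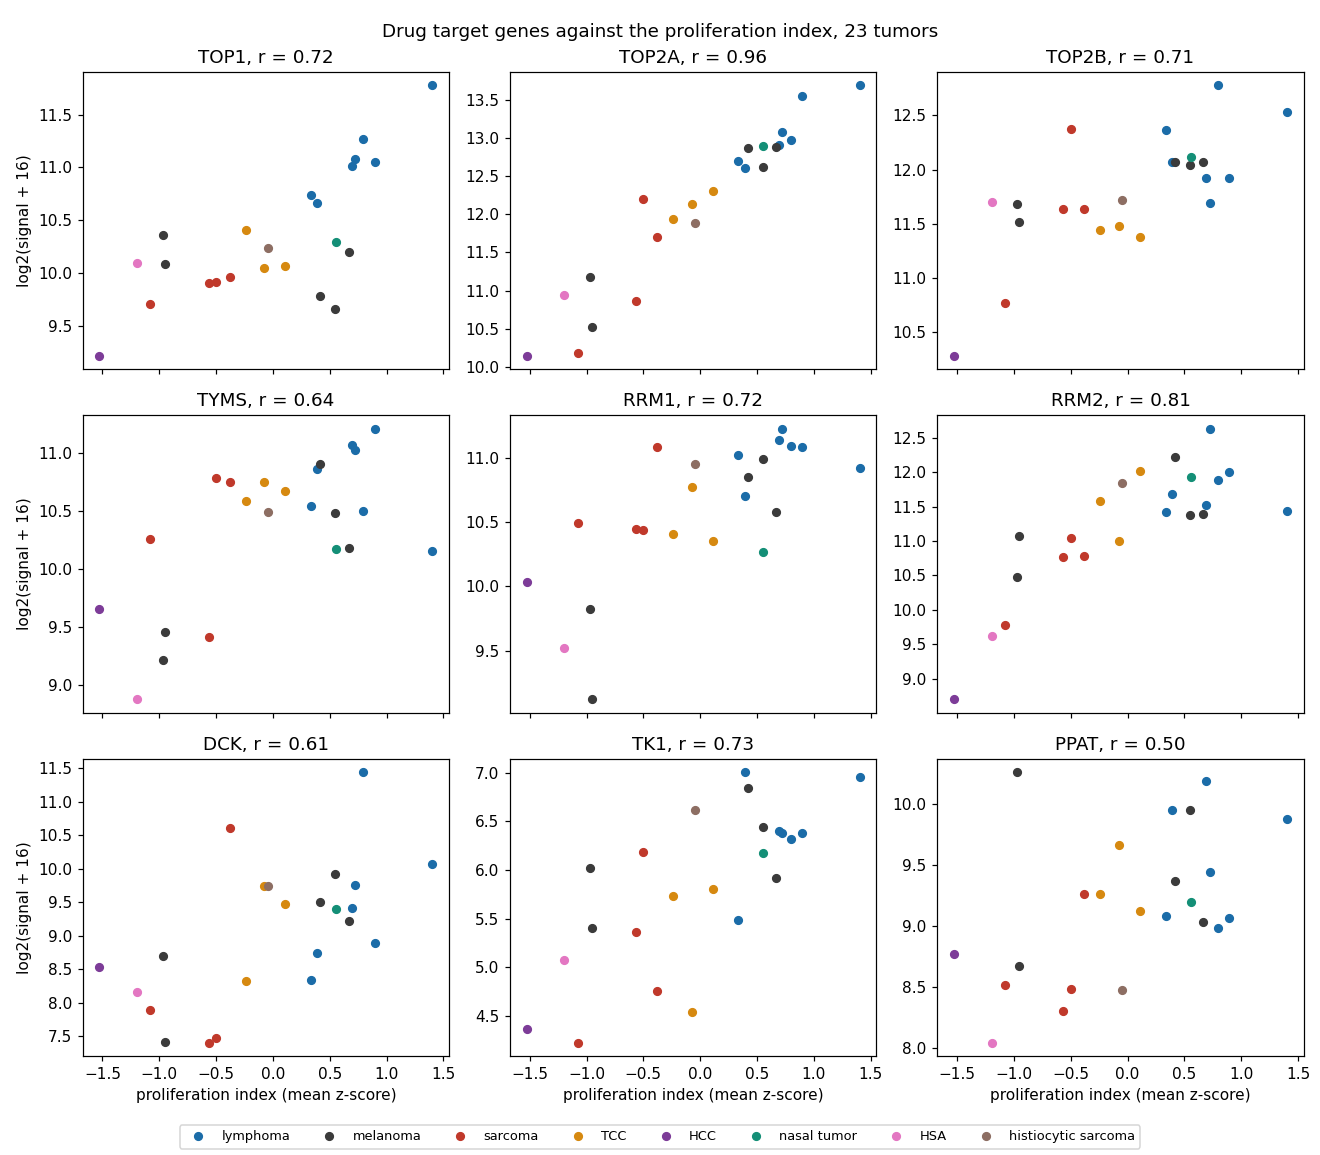
Level of each gene, as log2(signal + 16), against the proliferation index in 23 tumors, coloured by tumor type, with Pearson r over all tumors. TOP2A forms a narrow band across types (r = 0.96), whereas for TOP1 the lymphomas rise with the index (r = 0.96) and the other 16 tumors have r = 0.31.

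Fewer genes passed within types. With a mean for each of the 4 types and a common slope, TOP2A alone of the 8 passed the test, rising by 1.31 ± 0.18 (SE) per unit of the index (adjusted p = 0.00157), where 0.362% of all genes had a positive relation. Its type-centred r was 0.90 over 19 tumors. RRM1 had a slope of 0.66 ± 0.17 (adjusted p = 0.139) and RRM2 of 0.53 ± 0.23 (adjusted p = 0.593). DCK had the next steepest slope, 1.19 ± 0.44 (adjusted p = 0.473). TOP1 had a slope of 0.06 ± 0.17 and a type-centred r of 0.10, and PPAT a slope of 0.05 ± 0.26. With an index of the 10 replication genes alone, an alternative chosen after seeing the data, the TOP2A slope was 1.39 and did not pass (adjusted p = 0.388).

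Over the 7 lymphomas alone the TOP1 level rose with the index, with r = 0.96 (exact permutation test, two-sided, p = 0.00377) and a rank correlation of 0.86 (exact p = 0.0238). Over the 16 other tumors r was 0.31. Among the 5 melanomas, melanoma 0 had the highest TOP1 level and the lowest index. TOP2A also rose within the lymphomas, with r = 0.92 (exact permutation test, p = 0.00139) and a rank correlation of 0.93 (exact p = 0.00675), and over the 16 other tumors r was 0.94. Leaving out lymphomas 3 and 4, whose index was farthest from the median, left r at 0.85 for TOP1 and 0.88 for TOP2A in 5 tumors. The other 7 genes had r of -0.39 to 0.51 within lymphoma, with exact p from 0.229 to 0.967. In the same 5 tumors r went from 0.49 to -0.92 for TK1 and from 0.13 to -0.69 for PPAT. For RRM1 it went from 0.13 to 0.80, for TYMS from -0.39 to 0.17 and for RRM2 from -0.02 to 0.32. The values of these genes within lymphoma thus depend on lymphomas 3 and 4. TOP2B went from 0.26 to 0.10 and DCK from 0.51 to 0.38. These are 9 relations with unadjusted p, and the difference in slope between lymphoma and the other types was not tested.

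At an equal index the lymphoma differences changed for most genes. The fit takes 1 common slope over the types, which was 0.06 for TOP1, so the index could move its difference little. All lymphomas had an index above every TCC and sarcoma (at least 0.33 against at most 0.11 and -0.38). An equal index with those types thus lies outside the values measured. Whether the TOP1 difference is apart from proliferation was not tested. With the index in the fit, lymphoma minus the other 3 types was 1.0 ± 0.23 (SE) for TOP1, a fold of 2.0 (adjusted p = 0.00879), and -0.03 ± 0.24 for TOP2A (adjusted p = 0.956). TOP1 was thus the only gene of the 8 called higher in lymphoma at an equal index, where 3.46% of all genes were called. For RRM2 the difference was 0.12 ± 0.31, for RRM1 -0.10 ± 0.24, for TOP2B 0.15 ± 0.26 and for TYMS -0.07 ± 0.32. PPAT stood at 0.31 ± 0.35, near its value without the index. DCK, at 0.70 without the index, was at -0.49 ± 0.60 with it (adjusted p = 0.648). The TOP1 value lay on the size limit, and 12 of 28 alternatives ended the call, among them quantile normalization (0.99, adjusted p = 0.0129). Leaving out melanoma 0, 1, 2 or 4, TCC 0 or 2, or lymphoma 1 gave 0.88 to 0.98, all with an adjusted p under 0.05 (0.0145 to 0.0271).

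**Figure D4:**
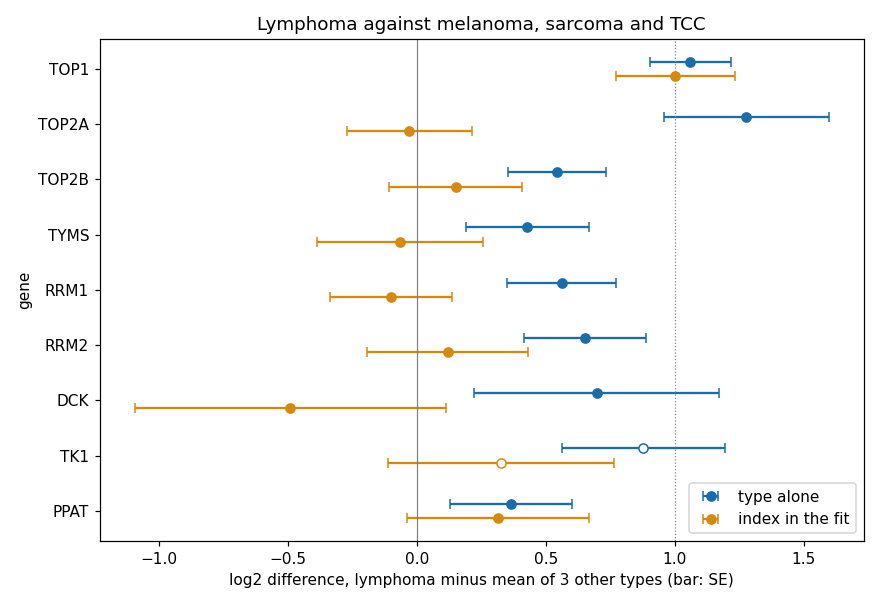
log2 difference between lymphoma and the mean of melanoma, sarcoma and TCC for each gene, from the fit on type alone and from the fit with the proliferation index; bars are SE, the dotted line is the size limit of 1, and open points mark TK1, fitted without the filter. The TOP1 difference is 1.06 without the index and 1.0 with it, and that of TOP2A is 1.28 and -0.03. The common slope of TOP1 on the index is 0.06, so the index could move its difference little. All lymphomas have an index above every TCC and sarcoma, so an equal index with those types lies outside the values measured. Whether the TOP1 difference is apart from proliferation was not tested.

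Of the B cell, T cell, macrophage, fibroblast and endothelial marker lists, the T cell list had the highest correlation with TOP1 over the 23 tumors (r = 0.67), followed by B cells (r = 0.58), and fibroblast and matrix genes moved against it (r = -0.56). Within the 7 lymphomas those correlations were 0.15, -0.42 and -0.62. In lymphoma against the other 3 types, 9 of 9 T cell genes and 5 of 6 B cell genes kept by the filter were called higher and 11 of 13 fibroblast and matrix genes lower. For TOP2A the T cell, B cell and fibroblast and matrix lists had r of 0.53, 0.34 and -0.34 over the 23 tumors. Within the 7 lymphomas they had 0.47, -0.65 and -0.64. The part of the lymphocyte and stromal content in the TOP1 and TOP2A differences, and in their rise with the index within lymphoma, was not tested. The 3' over 5' ratio correlated with the levels at -0.38 for TOP1 and TOP2B and between -0.29 and 0.11 for the other genes, and its part was not tested.

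Between the 9 genes, all 36 pairwise correlations over the 23 tumors were above 0, with a median of 0.47, a lowest value of 0.25 and 17 above 0.5. The closest pairs were TOP2A with RRM2 (0.81), TYMS with RRM1 (0.80) and TOP2A with TOP2B (0.76). With the type means removed, in 19 tumors, the median was 0.25 and 31 of 36 pairs stayed above 0. TOP2A with RRM1 was then the closest pair (0.72), followed by TYMS with RRM1 (0.67) and RRM1 with DCK (0.66). TOP1 then had 0.08 with TOP2A, -0.16 with RRM2, -0.25 with RRM1 and -0.49 with TYMS, the lowest of all pairs. The points share the array scaling and the type structure, and the values are a description.

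**Figure D5:**
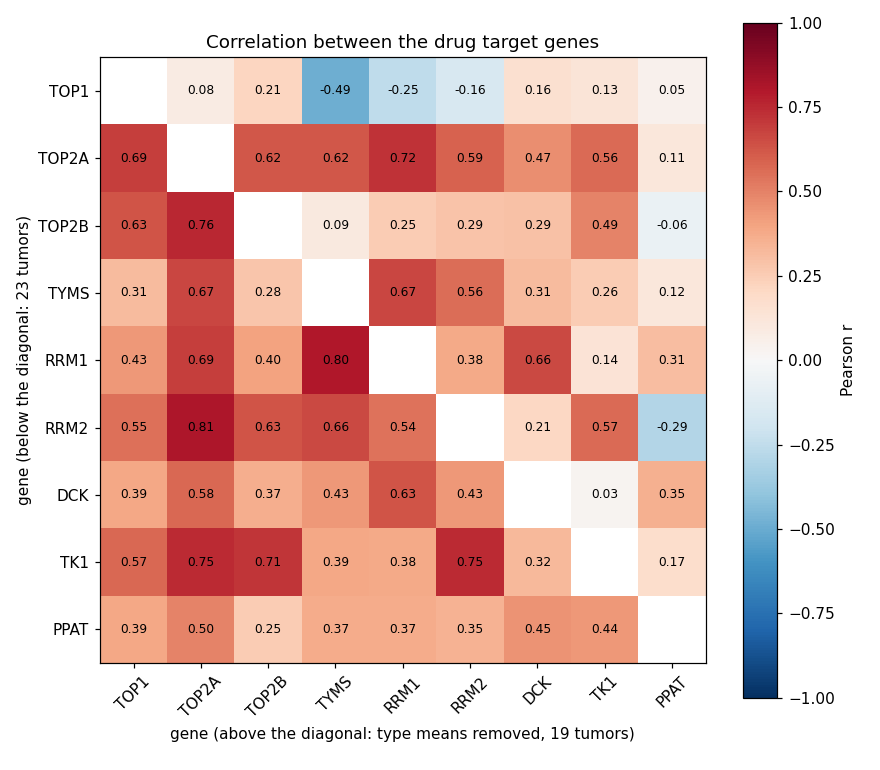
Pearson correlation between the 9 genes, below the diagonal over 23 tumors and above the diagonal over 19 tumors with the type means removed. All values below the diagonal are positive (0.25 to 0.81), and TOP1 has the lowest value above it (-0.49, with TYMS).

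The genes most like each member over the 23 tumors were drawn from the 9972 kept genes, leaving out the members themselves and locus numbers. For TOP2A they were CENPF (r = 0.94), TPX2 (0.94) and KIF11 (0.94), genes of the kinetochore and spindle that are also in the index. RRM2 was most like NDC80 (0.88), CEP55 (0.87) and ESCO2 (0.86), and DCK most like CCNB2 (0.71), AURKA (0.71) and CDC25C (0.70). TYMS was most like ATAD2 (0.83), BARD1 (0.81) and PCNA (0.77), the sliding clamp of DNA polymerase. RRM1 was most like CHORDC1, BARD1 and KIF18A (0.81 each). Of these, NDC80, CCNB2, AURKA and PCNA are also in the index. TOP1 was most like the RNA-binding proteins HNRNPM (0.89) and SRSF1 (0.84), with ATAD5 (0.86), an unloader of the sliding clamp, between them. TOP2B was most like KPNA5 (0.86), PDS5B (0.85), a cohesin regulator, and POLR2A (0.83), the large subunit of RNA polymerase II. PPAT was most like TEX30 (0.82), PAICS (0.79), a later enzyme of the same purine pathway, and EIF3H (0.77). For TK1 they were C4H5orf22 (0.86), RAD50 (0.84) and LMNB1 (0.83). With the type means removed, CENPF kept an r of 0.91 with TOP2A and PAICS of 0.84 with PPAT, while HNRNPM had 0.68 with TOP1.

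The other genes of the pathways are read against the shares of all genes that were called. In lymphoma 6.95% were called higher and 12.1% lower. In either direction 6.05% were called in sarcoma and 11.2% in TCC. No share was taken at an unadjusted p, so counts at that threshold have no background. Of 13 kept genes of thymidylate and folate metabolism, 1 was called higher and 1 lower in lymphoma, with a median difference of 0.44 against 0.07 over all genes. SHMT1, the cytosolic serine hydroxymethyltransferase that supplies methylene-folate to TYMS, was higher by 1.96 ± 0.40 (SE; adjusted p = 0.00112), with 9.84 to 11.03 in the lymphomas and at most 9.44 in the other 12 tumors of the 4 types. SLC46A1, the proton-coupled folate transporter, was lower, with a log2 difference of -1.12 (adjusted p = 0.00949). In sarcoma ALDH1L1, which oxidises formyl-folate, was higher by 2.20 (adjusted p = 0.0104), ranging from 5.51 to 9.70 in the 4 sarcomas, and it fell with the index (r = -0.61, adjusted p = 0.0216). DUT (r = 0.62) and MTHFD2 (r = 0.63) rose with the index beside TYMS.

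Of 11 kept genes of ribonucleotide reductase and the deoxynucleotide pool, 0 were called in lymphoma by limma (RRM1, RRM2, GLRX and NME1, that is 4, passed the adjusted p alone, and the same count had an unadjusted p under 0.05) and 2 were called higher in TCC. These were TXNRD1, thioredoxin reductase, by 1.51 (adjusted p = 0.00267) and TXN, thioredoxin, by 1.01 (adjusted p = 0.0345), which pass electrons to the reductase. RRM1 and RRM2 were the 2 genes of this list related to the index, and the alternative small subunit RRM2B was not (r = 0.04). Of 18 kept salvage genes, UCK2, uridine-cytidine kinase, was higher in lymphoma by 1.47 (adjusted p = 0.000921) and lower in TCC, with a difference of -1.42, and the pyrimidine nucleotidase NT5C3A was higher in lymphoma by 1.09 (adjusted p = 0.0055). NT5E, the ectonucleotidase CD73, was higher in TCC by 1.76 (adjusted p = 0.00594) and PNP, purine nucleoside phosphorylase, in sarcoma by 1.03 (adjusted p = 0.04). DCK was the only salvage gene of the 18 related to the index.

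In purine synthesis, 12 genes were kept and the median lymphoma difference was 0.57, the largest of the 7 pathway lists, but PRPSAP2, a partner of the phosphoribosyl pyrophosphate synthetases, was the only gene called there, higher by 1.08 (adjusted p = 0.000262). PRPS1, such a synthetase, was lower in TCC, with a difference of -1.30 (adjusted p = 0.00769), and ADSL, adenylosuccinate lyase, was lower in sarcoma, with a difference of -1.12 (adjusted p = 0.0473). ATIC (r = 0.58) and GMPS (r = 0.69) rose with the index. Of 7 kept topoisomerase and repair genes, the called ones were TOP1 and TOP2A. The topoisomerases TOP3A and TOP3B and the repair enzymes TDP1 and TDP2, which remove trapped topoisomerase from DNA, had lymphoma differences of 0.41, 0.80, 0.41 and 0.39 (adjusted p = 0.104, 0.235, 0.206 and 0.246). None of 4 pyrimidine synthesis genes or 3 nucleoside transporters was called in any type by limma. At an unadjusted p under 0.05 the counts were 1 in each of the 4 types for the synthesis genes and 0 for the transporters. UMPS, which completes uridine monophosphate synthesis, passed the adjusted p in lymphoma with a difference of 0.59 (adjusted p = 0.00317) and was the only one of these 7 that rose with the index (r = 0.64, adjusted p = 0.0261).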

How the data were processed

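Tumors were stored in RNAlater and RNA was extracted with the RNeasy Micro kit and amplified with the NuGEN Ovation Pico WTA system, per the labels. The authors deposited MAS5 intensities: 1 linear signal per probeset, with every array scaled to a common trimmed mean. The version was not given in the sources used here. Leaving out controls, the array has 42924 probesets. The platform annotation gives a unique gene symbol for 29254 of them and more than 1 for 439, which were not used, while 13231 are unnamed here. The mean of log2(signal + 16) over its probesets is the level of a gene. The number of arrays limits the precision, and p-values measure the spread between dogs.

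Types were taken from the labels. Lymphoma, melanoma, sarcoma and TCC (19 tumors) were compared in limma 3.58.1 in R 4.3.3 (eBayes with a variance trend, two-sided, Benjamini-Hochberg over all genes tested within each comparison). Pairs of types, the F test and the index relations used an adjusted p under 0.05 alone, and the types at an equal index used the size limit too. Since no probeset is named MKI67, the mean z-score of the proliferation list took its place, as laid down for that case, and the list's genes left the family, which then held 9940 genes. Permutation tests used Python 3.11.15 with numpy 2.4.6.

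The members, lists, tests and alternatives were chosen with earlier results of these data known. Named genes are all members, up to 4 called genes of each pathway list and 3 called proliferation genes. For each member the 3 most correlated genes outside the members are also named, leaving out locus numbers. The other pathway genes were named after their values were seen. Steps were tested on simulated data. The alternatives tried were quantile normalization, pseudocounts of 1 and 64, no filter, the brightest probeset, no variance trend, all 23 tumors as 2 groups, the 2 STS as the sarcoma group, the title number as a block, and leaving out each tumor. Title numbers did not pair tumors: the mean correlation of deviations was 0.01 over 23 pairs with the same number and -0.002 over 108 others. Sequences and coordinates were not used here.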

Additional observations from a re-analysis of the deposited data

Results flagged for a closer look

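In the 30 combinations of a gene or the index with a type of 4 or more tumors, 2 values lay far from the rest of their type, and chance alone flags about 1 in 20 such groups. Sarcoma 1 was the highest of the 4 sarcomas for RRM1, at 11.09 against 10.49 for the next and 10.44 for the lowest. It was also the highest for DCK, at 10.60 against 7.89 for the next and 7.40 for the lowest. The same tumor had an index of -0.38, the highest of the sarcomas, and a PPAT level of 9.26, also the highest of the 4.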

How the results depend on the processing

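Over 136 single-gene results and 3720 alternative values, 3652 kept their side of the threshold, 49 lost it, 19 gained it and 0 reversed a call, and 118 results kept their call under every alternative run. The count of genes higher in lymphoma was 2 and went from 1 to 2 when each tumor was left out in turn, the count lower in sarcoma was 0 and went from 0 to 2, and the count higher in lymphoma at an equal index was 1 and went from 0 to 1. That last count was 0 with a pseudocount of 64, with quantile normalization, with the brightest probeset (TOP1 at 0.74, adjusted p = 0.041), with the title number as a replicate block (TOP1 at 1.36, adjusted p = 0.052) and with an index of the mitosis genes alone, which was chosen after seeing the data. The count related to the index within types was 1. It was 0 with the replicate block and 0 with an index of the replication genes alone. With the block the TOP2A slope was 1.15, against 1.31 in the main fit, with an adjusted p of 0.999 (limma). DCK, RRM1, RRM2, TOP1, TOP2B and TYMS had the same value as their highest adjusted p over the alternatives. The cause was not tested. With the replicate block the count higher in lymphoma stayed at 2 (TOP1 and TOP2A), and the numbers do not pair the tumors. DCK did not pass over all tumors with the replication index (r = 0.43, adjusted p = 0.119). TOP1 in lymphoma kept its call under 27 of 28 alternatives, and the lymphoma differences of PPAT from sarcoma and of RRM1 from melanoma kept theirs under 11 and 13 of 26. The counts for melanoma (0), TCC (0) and the index over all tumors (7, from 7 to 8) and the F test (3, from 2 to 4) moved by no more than 1.5 times. The list's mean z-score was the main measure of proliferation and not a separate alternative. TK1 lay near the floor of the scale, which limits its differences.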
